A study of Mus musculus with 12 samples.

Results

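The machinery by which cells sense amino acids around the kinase complex mTORC1 was followed through 10 genes, taken by symbol from the count files. They are the Rag GTPase genes Rragc and Rragd, the folliculin gene Flcn and its partners Fnip1 and Fnip2, the transcription factor gene Tfeb, the mTORC1 inhibitor genes Deptor and Ddit4, and the sestrin genes Sesn1 and Sesn3. These are 10 of 24062 gene symbols. Each of the 10 had at least 22 reads in every library and passed the filter on low counts in every comparison.

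mTORC1 promotes growth at the surface of the lysosome, where it arrives only when amino acids are present. Heterodimers of Rag GTPases, A or B paired with C or D, hold it there, and the Ragulator complex anchors them. Folliculin, bound to FNIP1 or FNIP2, turns on the C and D partners as a GTPase-activating protein, and this step lets mTORC1 phosphorylate TFEB, which then stays out of the nucleus. When it is free, TFEB drives genes of lysosomes and autophagy, and Rragd, Flcn and Fnip genes are among the known targets of its family. Sestrins restrain the pathway upstream by binding GATOR2. DDIT4 restrains it through the TSC complex, and DEPTOR binds the kinase itself. Most of this control acts on proteins and their location, which RNA levels do not measure. Tryptophan is an amino acid that cells must take up, and the diet comparison asks what the RNA levels of this machinery were when it was missing from the food.

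RNA-seq libraries of 12 mice, 1 per mouse, fall into 4 groups of 3. The livers came from male FVB mice carrying LAP-tTA and TRE-MYC, in which a liver promoter drives the transactivator that switches on the MYC transgene once doxycycline is withdrawn at birth. All 6 livers therefore had MYC on (MYC-ON), at 50 days of age after 21 days on the control diet (mice 101, 102 and 103) or on a diet without tryptophan (No-Trp, mice 105, 107 and 108). The paper reports less MYC expression in No-Trp than in control-diet livers, though more than in wild-type livers. It also reports fewer and smaller tumors and a lower liver weight on the No-Trp diet. Diet, MYC level and tumor content therefore cannot be told apart in these livers. The xenografts were HCC53N tumors, derived from 1 line of mouse liver cancer cells without p53 and with mutant N-Ras, and grew subcutaneously in NOD SCID hosts, which lack mature lymphocytes. The study's methods name female hosts with repeats in males, and the sex of the hosts sequenced here is not given in the sources used. Their hosts were on the control diet (mice 40, 41 and 43) or the No-Trp diet (mice 35, 36 and 37), also for 21 days, and their age is not given in the sources used here. The labels call the tumor cells MYC-ON too, and whether they carry the transgene was not settled. Host and tumor are both mouse, so reads of host cells within a tumor count with those of the tumor.

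Reads on genes ranged from 14660963 to 26085349 per library, and replicate libraries differed by 36.8 to 291 times the counting noise. The ribosomal precursor Rn45s held 12.1% of the reads of control liver 101 and at most 2.22% in any other library. Livers 101 and 108 and control xenografts 41 and 43 are marked as resubmitted, and this mark was handled as a batch that may matter. In the xenografts this mark falls on control tumors alone. The record of control tumor 40 follows another naming pattern than the other tumors, so that its diet rests on its sample labels only. Levels are given as CPM, the counts of a gene relative to the size of its library, scaled with edgeR's TMM factors over the 12 libraries. The diets were compared by model with edgeR's quasi-likelihood test, and a gene passed when its p, adjusted by Benjamini-Hochberg over every gene tested, was 0.05 or less. With 3 mice against 3, an exact two-sided permutation test of a single gene cannot give a p under 0.1.

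The hepatocyte markers check the label of the livers and move with the diet there. The summed level of 8 markers was 12557 CPM in control liver 101, 37924 in 102 and 10193 in 103, and 59357, 122135 and 50053 CPM in No-Trp livers 105, 107 and 108. Of these markers 5 rose on the No-Trp diet and 0 fell, with a median log2 fold change of 1.73. Albumin, the first of them, lay between 4521 and 88144 CPM in the livers and between 74.8 and 343 CPM in the xenografts, where the summed level was at most 1382 CPM. All 4 erythroid markers tested fell in the livers (median −5.14). The globin genes Hba-a1 and Hbb-bs were at 0 in every library, also in control livers, where this list summed to 48.9 to 536 CPM. This 0 is not read as absence of globin RNA, since how reads matching several genes were counted is not given. In the xenografts 2 of 5 adipocyte markers rose (median 4.70), with a summed level of 11.4 to 66.9 CPM in control and 351 to 739 CPM in No-Trp tumors. The endothelial list held 1 rise of 6 in the livers and the fibroblast and stellate list 2 rises and 1 fall of 8. The adipocyte list held 1 fall of 2 tested in the livers. Among leukocyte, muscle and skin, and cholangiocyte markers 0 passed in either diet comparison. In bulk samples fewer cells of a type and less RNA per cell cannot be told apart.

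Of the 10 genes, 1 rose and 1 fell in MYC-ON livers on the No-Trp diet. Deptor rose 2.15-fold and Rragd fell 5.26-fold. Over all 14122 genes tested in the livers 25.3% passed, 13.3% higher and 12% lower, so 2 of 10 is near the background. The 3 mice of one diet all lay above the 3 of the other in 7 of the 10 genes (5 higher, 2 lower), against 48.6% of all genes (23.6% higher, 25% lower), and 7 of the 10 had an unadjusted p of at most 0.05, against 41.8% of all genes. These separations rest on levels scaled by the TMM factors, which were 0.685 to 0.87 in No-Trp livers and 0.901 to 1.08 in control livers. They were not counted under other scalings. The median log2 fold change was 0.48 for the 10 and 0.00 for all genes. In the xenografts 0 of the 10 passed with edgeR and 0 with DESeq2, where 0.374% of 14704 genes passed with edgeR (0.245% higher, 0.129% lower), and 3 of the 10 had an unadjusted p of at most 0.05 (16.9% of all genes).

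**Figure D1:**
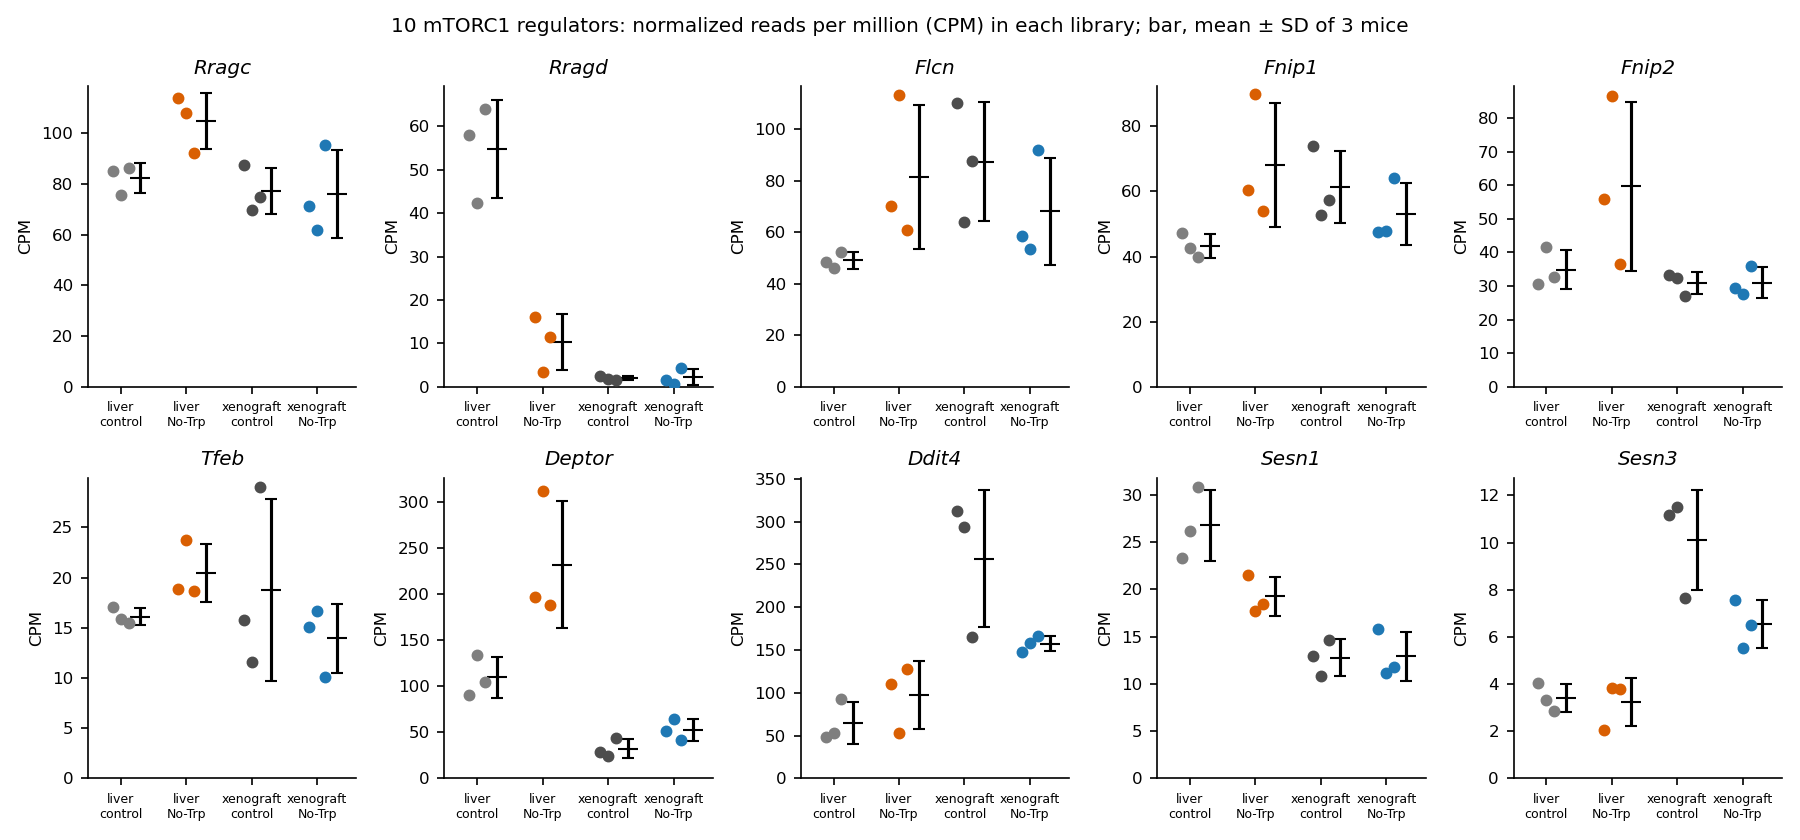
Each panel shows 1 gene, with its CPM on the vertical axis and the 4 groups on the horizontal axis. Points are libraries, and the bar beside them is the mean ± SD of 3 mice. Rragd was at 42.4 to 64.1 CPM in control livers and 3.38 to 16.1 CPM in No-Trp livers, and Deptor at 90.0 to 134 and 188 to 312 CPM.

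Rragc and Rragd encode the C and D partners of the Rag heterodimer. Rragd lies on chromosome 4 (chr4:32983037-33022180, plus strand, GRCm38, coordinates of GENCODE M21 throughout) and Rragc on the same chromosome (chr4:123917446-123936997, plus strand). Rragd was at 58.0, 42.4 and 64.1 CPM in control livers 101, 102 and 103. It was at 16.1, 3.38 and 11.6 CPM in No-Trp livers 105, 107 and 108. Every No-Trp liver was below every control liver, and mouse 107 was the lowest. This is a log2 fold change of −2.39 (edgeR adjusted p = 0.0251, standard error 0.52). The fall was of similar size in the marked and unmarked livers, at −2.32 (1 mouse against 1) and −2.80 (2 against 2). These log2 ratios, here and below, are differences between the mean log2 CPM of the diets, with 0.1 CPM added. Leaving out each mouse in turn gave −2.86 to −1.98. Rragd did not pass without control liver 101 (adjusted p = 0.0659) or 103 (0.0912), or without No-Trp liver 105 (0.0533) or 108 (0.0522). Ordered from low to high summed hepatocyte markers, the livers run 103, 101, 102, 108, 105 and 107, and Rragd fell along this order except that 105 lay above 108. The part of the hepatocyte share in this result was not tested.

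Rragc did not pass in either model. It was at 85.0, 75.7 and 86.4 CPM in the control livers and at 114, 108 and 92.4 CPM in the No-Trp livers. The groups did not overlap, with a log2 fold change of 0.36 (edgeR adjusted p = 0.109, standard error 0.15). Over 15 alternative settings the liver value of Rragc ranged from 0.06 to 0.45. In the xenografts it ranged from 61.9 to 95.5 CPM over both diets, with a log2 fold change of −0.03 (standard error 0.19). Part of its exons overlap those of a gene that has no row in the count files.

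Rragd was near the floor of the measurement in the xenografts. The control tumors 41, 43 and 40 held 2.43, 1.83 and 1.57 CPM, and the No-Trp tumors 35, 36 and 37 held 1.63, 0.734 and 4.24 CPM, which stands for 22 to 100 reads. The groups overlapped, and the log2 fold change of 0.17 had a standard error of 0.62. On the control diet Rragd was 28.0-fold lower in xenografts than in livers (log2 fold change −4.81, standard error 0.67, edgeR adjusted p = 8.14e-05). Per length, as CPM per kilobase of exon (FPKM), Rragd made up 29.8% ± 2.99 of the Rragc and Rragd sum in control livers, 5.94% ± 3.45 in No-Trp livers, 1.59% ± 0.223 in control xenografts and 1.67% ± 1.03 in No-Trp xenografts (SD, n = 3 each). The sum of the pair was 35.3 ± 3.90 FPKM in control and 33.4 ± 3.66 FPKM in No-Trp livers, a difference within the spread between mice.

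**Figure D2:**
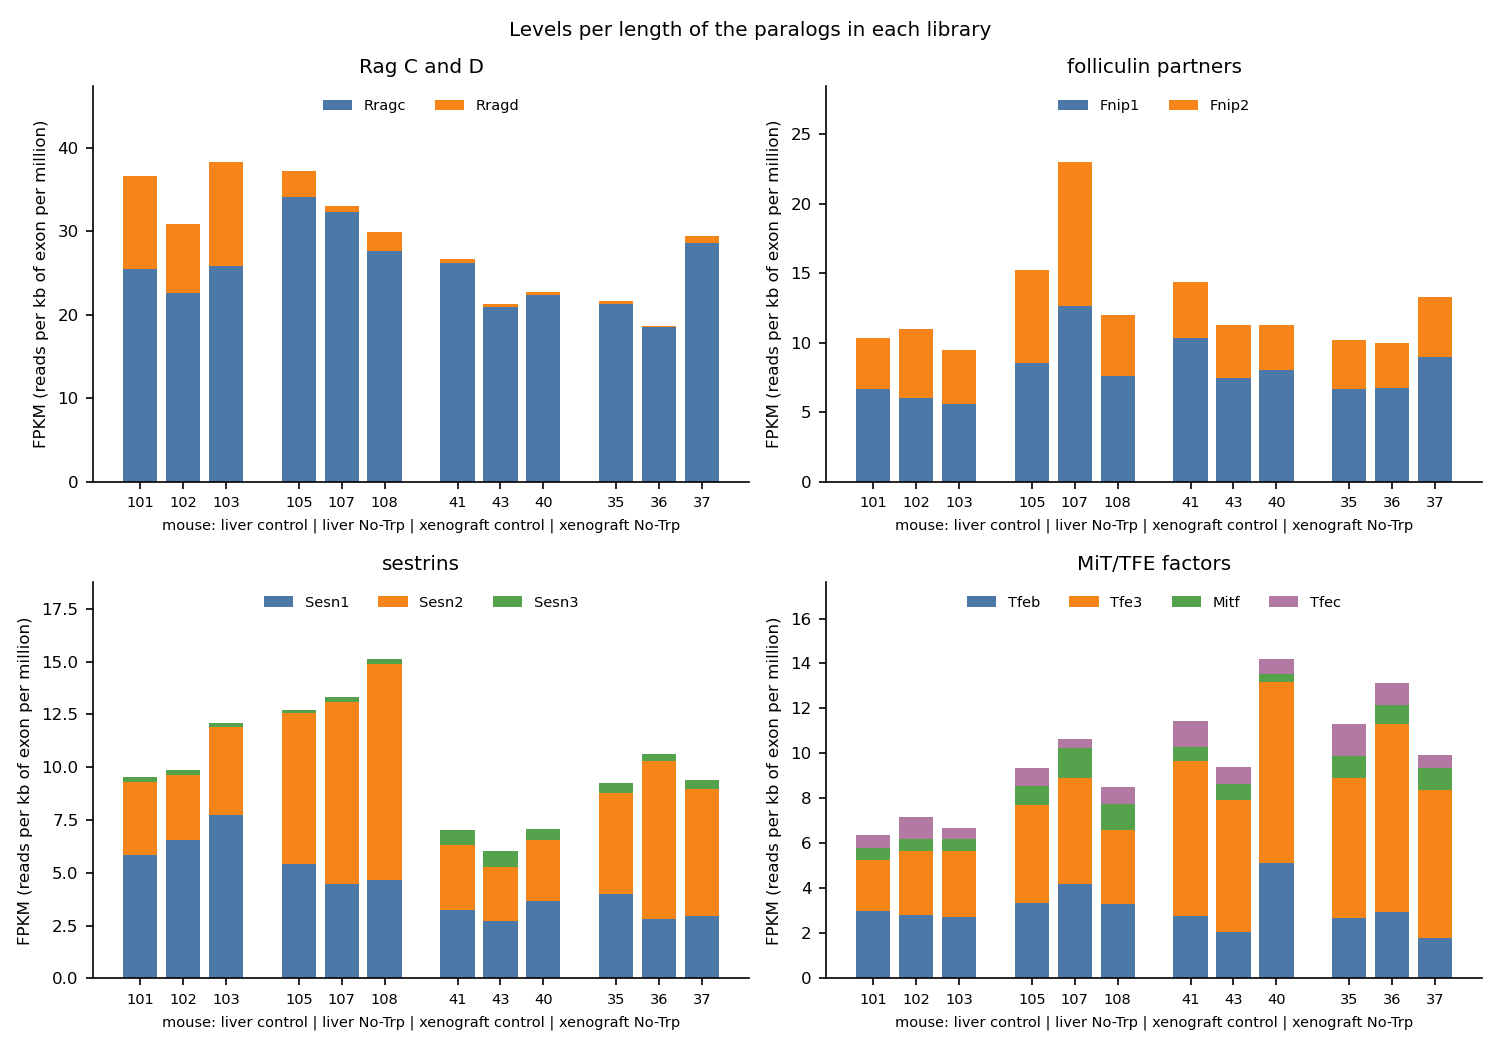
Bars are libraries, named by mouse, and the stacked colors are the levels per length (FPKM) of the genes of a family. Rragd (orange, upper left) held 26.5% to 32.4% of the Rragc and Rragd sum in control livers and 1.98% to 8.35% in No-Trp livers, and Sesn2 (orange, lower left) held more of the sestrin sum on the No-Trp diet in both models.

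Flcn, Fnip1 and Fnip2 encode folliculin and the partners that it binds at the lysosome. Flcn (chr11:59791408-59810016, minus strand) was at 48.5, 46.2 and 52.5 CPM in control livers and at 70.3, 113 and 61.0 CPM in No-Trp livers. Fnip1 (chr11:54438199-54518235, plus strand) was at 47.3, 42.8 and 39.9 CPM and at 60.6, 89.8 and 53.9 CPM. Fnip2 (chr3:79455974-79567796, minus strand) was at 30.6, 41.5 and 32.6 CPM and at 56.0, 86.5 and 36.7 CPM. Mouse 107 was the highest for all of the trio, and the groups did not overlap for Flcn and Fnip1 but did for Fnip2. None of the trio passed in the livers. The log2 fold changes were 0.75 for Flcn (standard error 0.25, adjusted p = 0.0613), 0.67 for Fnip1 (0.22, 0.0597) and 0.79 for Fnip2 (0.31, 0.0983). Liver 108 bore on these calls. Without it the edgeR adjusted p was 0.0445 for Flcn, 0.0475 for Fnip1 and 0.0405 for Fnip2, with log2 fold changes of 0.93, 0.82 and 1.05. The resubmission mark moves with them as well. The log2 ratio of the unmarked livers was 0.86 for Flcn, 0.84 for Fnip1 and 0.92 for Fnip2, and between marked livers 108 and 101 it was 0.33, 0.19 and 0.26.

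The folliculin genes did not pass in the xenografts either, and the difference between the models, given further on, did not pass with edgeR for any of them. Flcn was at 110, 64.1 and 87.8 CPM in control tumors 41, 43 and 40 and at 58.6, 53.6 and 92.1 CPM in No-Trp tumors 35, 36 and 37. Fnip1 ranged from 52.9 to 73.8 CPM and from 47.5 to 64.1 CPM, and Fnip2 from 27.1 to 33.2 CPM and from 27.5 to 36.1 CPM. The diets overlapped in all of them, and the log2 fold changes were −0.37 (standard error 0.26), −0.22 (0.19) and −0.01 (0.18). On the control diet Flcn was 1.78-fold higher in xenografts than in livers (edgeR adjusted p = 0.0198), a call lost without liver 101 (0.051), liver 102 (0.0636) or xenograft 41 (0.0886). Per length, Fnip2 made up 40.6% ± 4.85 of the Fnip sum in control livers and 41.9% ± 4.58 in No-Trp livers, against 30.2% ± 3.53 and 33.3% ± 1.11 in the xenografts (SD, n = 3 each). The diets overlapped in this share in both models.

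Tfeb (chr17:47737030-47792419, plus strand) encodes the factor that folliculin keeps under mTORC1. It was at 17.0, 15.9 and 15.4 CPM in control livers and at 18.9, 23.8 and 18.6 CPM in No-Trp livers. All No-Trp livers were higher on this scale, but Tfeb did not pass (log2 fold change 0.36, standard error 0.19, adjusted p = 0.188). Over 15 alternative settings its liver value ranged from 0.05 to 0.43. In the xenografts it was at 15.8, 11.6 and 29.0 CPM in control tumors 41, 43 and 40 and at 15.1, 16.6 and 10.1 CPM in No-Trp tumors. Tumor 40 stood alone there, and the log2 fold change of −0.44 (standard error 0.35) became 0.01 without it. Its group means lay between 14 and 20.4 CPM, and neighbors in that order overlapped throughout. Per length, Tfeb made up 42.3% ± 4.13 of the MiT/TFE family (Tfeb, Tfe3, Mitf and Tfec) in control livers and 37.9% ± 2.01 in No-Trp livers, and 27.3% ± 7.63 and 21.3% ± 2.96 in control and No-Trp xenografts (SD, n = 3 each). Tfe3 was the most abundant per length in the xenografts, with 59.8% ± 3.10 of the family on the control diet. Tfe3 was higher in xenografts than in livers on the control diet (log2 fold change 1.37, edgeR adjusted p = 7.35e-05).

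Promoters of 9 of the 10 genes were at hand from RefSeq, as 12 windows from 250 bases before to 50 bases after a start site (build GRCm38.p6). Both strands were searched for CACGTG, the E-box core that TFEB and its family bind, and MYC with its partner as well. It was found in 7.15% of the 32851 windows of all genes and in 2 of the 12, those of Rragc and Fnip1. Both matches also hold the longer TCACGTG, which overlaps the core and occurs in 3.77% of all windows. The windows of Rragc and Fnip1 are printed because they hold the match, and that of Rragd because it is the gene that fell. Capitals mark CACGTG, which starts 112 bases before the start site in Rragc and 75 bases before it in Fnip1. All are on the plus strand, 5′ to 3′.
Rragc, chr4:123917183-123917482: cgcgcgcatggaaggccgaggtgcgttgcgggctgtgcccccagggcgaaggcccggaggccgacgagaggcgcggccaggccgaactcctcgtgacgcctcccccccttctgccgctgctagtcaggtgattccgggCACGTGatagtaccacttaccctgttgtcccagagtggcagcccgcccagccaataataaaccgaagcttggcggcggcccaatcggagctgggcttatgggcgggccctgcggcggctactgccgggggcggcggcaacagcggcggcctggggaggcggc
Fnip1, chr11:54437929-54438228: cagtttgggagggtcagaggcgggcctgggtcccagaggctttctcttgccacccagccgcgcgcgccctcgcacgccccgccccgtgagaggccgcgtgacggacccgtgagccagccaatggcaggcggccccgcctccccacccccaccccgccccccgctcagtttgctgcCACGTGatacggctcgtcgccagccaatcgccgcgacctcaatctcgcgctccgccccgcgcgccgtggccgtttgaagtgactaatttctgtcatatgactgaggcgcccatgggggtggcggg
Rragd, chr4:32982748-32983047: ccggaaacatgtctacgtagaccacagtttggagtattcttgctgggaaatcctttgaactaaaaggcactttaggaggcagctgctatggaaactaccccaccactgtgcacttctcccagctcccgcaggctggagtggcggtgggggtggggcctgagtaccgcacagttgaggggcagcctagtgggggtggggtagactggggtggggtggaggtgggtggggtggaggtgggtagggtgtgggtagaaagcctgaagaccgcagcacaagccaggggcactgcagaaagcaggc
The window of Rragd holds no CACGTG. TGATGNAA, a form of the element bound by ATF4 with its partners, occurs in 3.97% of all windows and in 0 of the 12. TGTTTAC, the core of FOXO sites, occurs in 3.65% of all windows and in 1 of the 12, a window of Sesn1.

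Deptor encodes a subunit of mTOR complexes that inhibits the kinase. Deptor (chr15:55112317-55259271, plus strand) shares 303 bases of exon with Gm9920 on the opposite strand, and since the strand setting of the counting is not given, reads there cannot be assigned to either with certainty. It was at 90.0, 134 and 104 CPM in control livers 101, 102 and 103. It was at 197, 312 and 188 CPM in No-Trp livers 105, 107 and 108. All No-Trp livers were above all control livers, with mouse 107 the highest. This is a log2 fold change of 1.10 (edgeR adjusted p = 0.0279, standard error 0.26). It was 1.06 as the log2 ratio within both the marked and the unmarked livers. Deptor did not pass without control liver 101 (adjusted p = 0.083) or 103 (0.105), without No-Trp liver 105 (0.0612), or when library totals replaced the TMM factors (log2 fold change 0.76, adjusted p = 0.0517). Deptor rose along the order of summed hepatocyte markers given above, except that 101 lay below 103. The part of the hepatocyte share in this result was not tested.

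In the xenografts Deptor was at 29.0, 24 and 43.7 CPM in control tumors 41, 43 and 40 and at 51.9, 64.8 and 41.3 CPM in No-Trp tumors 35, 36 and 37. Of the No-Trp tumors 2 lay above all controls, while tumor 37 lay just under control tumor 40. The log2 fold change of 0.70 (standard error 0.25) did not pass (adjusted p = 0.222), and against the unmarked control tumor 40 alone the log2 ratio was 0.25. The difference between the diet effects of the models was −0.37 (standard error 0.38, edgeR adjusted p = 0.536), so the rise in the livers was not shown to differ from the value in the tumors. On the control diet Deptor was 3.40-fold lower in xenografts than in livers (adjusted p = 0.00018). The group means ran from 32.2 CPM in control xenografts to 52.7, 110 and 232 CPM in No-Trp xenografts, control livers and No-Trp livers, and of these neighbors only the xenograft groups overlapped.

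Ddit4 (chr10:59949669-59951834, minus strand), also named REDD1, restrains mTORC1 through the TSC complex and is known to be induced by stress, glucocorticoids and low oxygen. It was at 48.3, 53.5 and 93.2 CPM in control livers and at 111, 53.2 and 128 CPM in No-Trp livers. The groups overlapped, since mouse 107 stood at the level of the lower controls, and the log2 fold change of 0.59 (standard error 0.38) did not pass (adjusted p = 0.274). In the xenografts it was at 312, 293 and 165 CPM in control tumors 41, 43 and 40 and at 148, 159 and 166 CPM in No-Trp tumors 35, 36 and 37. Control tumor 40, the control without the resubmission mark, lay within the No-Trp group. With all tumors the log2 fold change was −0.72 (standard error 0.24, adjusted p = 0.19). Without tumor 40 it was −0.96 with an edgeR adjusted p of 0.0467, and against tumor 40 alone the log2 ratio was −0.07. Batch and diet cannot be told apart among the other control tumors. On the control diet Ddit4 was 3.95-fold higher in xenografts than in livers (edgeR adjusted p = 0.000474).

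Sesn1 and Sesn3 encode sestrins, stress-induced proteins that bind GATOR2 and restrain mTORC1. Sesn1 (chr10:41809935-41908424, plus strand) is a known target of p53 and FOXO. It was at 23.3, 26.1 and 30.8 CPM in control livers and at 21.6, 17.7 and 18.5 CPM in No-Trp livers. The groups did not overlap, but the log2 fold change of −0.46 (standard error 0.19) did not pass (adjusted p = 0.106). In the xenografts it ranged from 10.8 to 15.8 CPM over both diets. On the control diet it was 2.09-fold lower there than in livers (edgeR adjusted p = 0.000907). Of the 14 p53 targets counted further on, 5 were higher and 6 lower in the same contrast. The part of p53 in the level of Sesn1 was not tested. Sesn3 (chr9:14275067-14333101, plus strand), a known FOXO target, was the lowest of the livers' members per length, at 0.224 ± 0.0389 FPKM in control and 0.211 ± 0.0662 FPKM in No-Trp livers (SD, n = 3 each), which stands for 36 to 84 reads. In control tumors 41, 43 and 40 it was at 11.2, 11.5 and 7.65 CPM, and in No-Trp tumors at 7.58, 5.54 and 6.49 CPM. Sesn3 was the 1 gene of the 10 whose diet groups did not overlap in the xenografts (22.5% of all genes, 10.7% higher and 11.8% lower), and it did not pass (log2 fold change −0.64, standard error 0.27, adjusted p = 0.28). It was 2.96-fold higher in xenografts than in livers on the control diet (adjusted p = 0.00103).

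Sesn2, the third sestrin and a leucine sensor induced by ATF4, was added as a paralog. Sesn2 rose in the livers, from 11.9, 10.6 and 14.5 CPM to 24.9, 30.1 and 35.6 CPM (log2 fold change 1.30, standard error 0.22, edgeR adjusted p = 0.0178). In the xenografts it was at 10.6, 8.95 and 10 CPM in control tumors 41, 43 and 40 and at 16.6, 26 and 20.9 CPM in No-Trp tumors. Every No-Trp tumor was above every control tumor, and the log2 fold change of 1.09 (standard error 0.22) did not pass (adjusted p = 0.0778). Per length, Sesn1 went from 64.0% ± 2.66 of the sestrin sum in control livers to 35.5% ± 6.23 in No-Trp livers, and Sesn2 from 33.8% ± 2.44 to 63.0% ± 5.86 (SD, n = 3 each). Sesn2 held 42.3% ± 1.41 in control xenografts and 62.0% ± 9.50 in No-Trp xenografts, and Sesn3 9.99% ± 2.72 and 4.43% ± 0.977.

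Over the model contrast on the control diet, 3 of the 10 genes were higher in xenografts (Ddit4, Sesn3 and Flcn) and 3 lower (Rragd, Deptor and Sesn1), against 59.5% of 15472 genes that passed (30.8% higher, 28.7% lower). The models did not overlap in 7 of the 10 (4 higher, 3 lower), against 65.1% of all genes (33.3% higher, 31.8% lower). Tissue, host strain and cell source differ together here and cannot be told apart. All 8 hepatocyte markers were lower in xenografts (median −5.54), and 4 of 5 cholangiocyte markers were higher (median 5.07). For the difference between the diet effects, tested over all 12 libraries, 0 of the 10 passed with edgeR, where 15.6% of all genes passed (8.24% higher, 7.39% lower), and 4 had an unadjusted p of at most 0.05 (32.2% of all genes). These were Rragd (xenograft minus liver 2.56, standard error 0.85, adjusted p = 0.0608), Fnip1 (−0.86, 0.30, 0.0691), Flcn (−1.09, 0.39, 0.073) and Ddit4 (−1.29, 0.48, 0.0898). With DESeq2 all 4 of them passed, at adjusted p-values of 0.0132, 0.0406, 0.0408 and 0.0371 in that order. DESeq2 called more genes lower, 1917 of 15751 against 1144 of 15472 with edgeR. The edgeR share of 15.6% is therefore not the background for these DESeq2 calls.

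**Figure D3:**
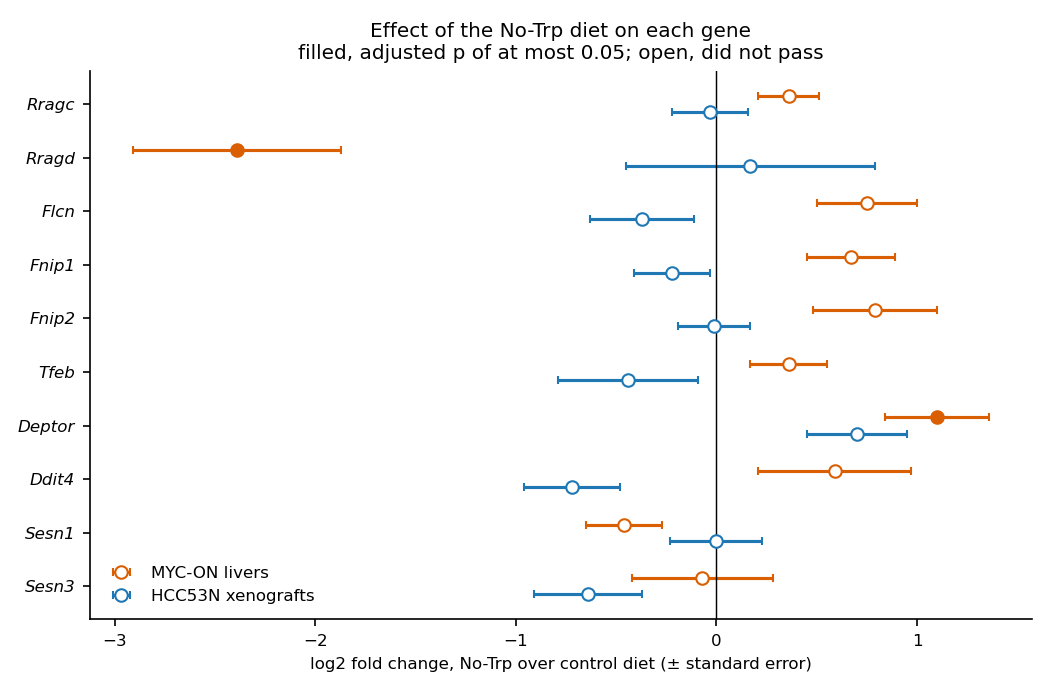
Points are log2 fold changes of the No-Trp over the control diet with their standard errors, in livers (orange) and xenografts (blue). Filled points passed, which in the livers holds for Rragd (−2.39) and Deptor (1.10) and in the xenografts for 0 genes. Flcn, Fnip1, Ddit4 and Tfeb lie right of 0 in livers and left of 0 in xenografts.

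The rest of the pathway was described through lists of genes, whose medians are read against 0.00 for all genes in both diet comparisons. Their counts are read against the 25.3% of all genes that passed in the livers (13.3% higher, 12% lower). A count near that share is not read as a response of the list. Of 10 mTOR complex subunits 1 rose and 2 fell in the livers (median −0.02). Mtor, the kinase, rose by 0.62 on the log2 scale (edgeR adjusted p = 0.0412), Telo2, which helps to assemble kinases of its family, fell by 1.10 (0.0281), and Prr5, a subunit of mTORC2, fell by 1.04 (0.0221). Of the 8 other genes of the Rag and Ragulator platform 1 fell, Rragb, which encodes Rag B. Rragb was at 3.96, 7.10 and 5.47 CPM in control livers and at 0.972, 0.307 and 0.544 CPM in No-Trp livers, which stands for 82 to 137 and 5 to 17 reads. Every No-Trp liver was lower, with a log2 fold change of −3.14 (edgeR adjusted p = 0.0163, standard error 0.48). How reads matching both Rraga and Rragb were counted is not given in the sources used here. Per length, Rragb went from 6.03% ± 0.811 to 0.673% ± 0.356 of the Rag A and B sum (SD, n = 3 each). Within both Rag pairs the gene less abundant per length in control livers was the one that fell there.

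Of 15 genes of GATOR, KICSTOR and the amino acid sensors 2 rose in the livers, Sesn2 and Nprl3, and 1 fell, Itfg2. Nprl3 encodes a GATOR1 subunit (log2 fold change 0.66, edgeR adjusted p = 0.0334), and Itfg2 a KICSTOR subunit (−0.74, 0.031). In the TSC-Rheb axis Rhebl1, a relative of the mTORC1 activator Rheb, fell by 1.52 (edgeR adjusted p = 0.0262), as 1 of 6. Of 10 mTORC1 substrates 1 fell, Rps6kb1 for S6 kinase, by 0.53 (edgeR adjusted p = 0.0468). In the xenografts 0 genes of these lists passed with edgeR, where 0.374% of all genes passed. The medians there lay between −0.30 for the TSC-Rheb axis and 0.15 for the mTOR complex subunits. Over all genes the number of liver calls depended on which mouse was left out. These calls went from 1876 higher and 1697 lower to 7 and 1 without control liver 103, 181 and 118 without control liver 101, and 300 and 70 without No-Trp liver 105. Genes with an unadjusted p of at most 0.05 went from 5901 to 4363 without control liver 103. Each such fit also has 1 mouse fewer, and the part of this in the drop was not tested.

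The TFEB branch was followed through the RNA of its family and of its lysosomal targets. Mitf, a relative of Tfeb, rose in the livers (log2 fold change 1.05, edgeR adjusted p = 0.0373), as 1 of 3 relatives. Of 43 lysosomal targets tested 13 rose and 1 fell in the livers, with 35 positive values and a median of 0.35, where 13.3% of all genes rose and 12% fell. Lamp2, a protein of the lysosomal membrane, rose from 232 ± 93.5 to 626 CPM (log2 fold change 1.46, edgeR adjusted p = 0.0286), and Sqstm1, the autophagy receptor p62, from 243 ± 25.4 to 611 CPM (1.35, 0.0205). Glb1, the lysosomal beta-galactosidase, fell by 1.08 (edgeR adjusted p = 0.0422). In the xenografts 0 of 43 passed, 34 values were negative, and the median was −0.24. The smallest p there belonged to Atp6v1g1, a subunit of the proton pump (log2 fold change −0.78, edgeR adjusted p = 0.0575). The hepatocyte markers given above were higher in the same livers, and their part in these values was not tested.

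**Figure D4:**
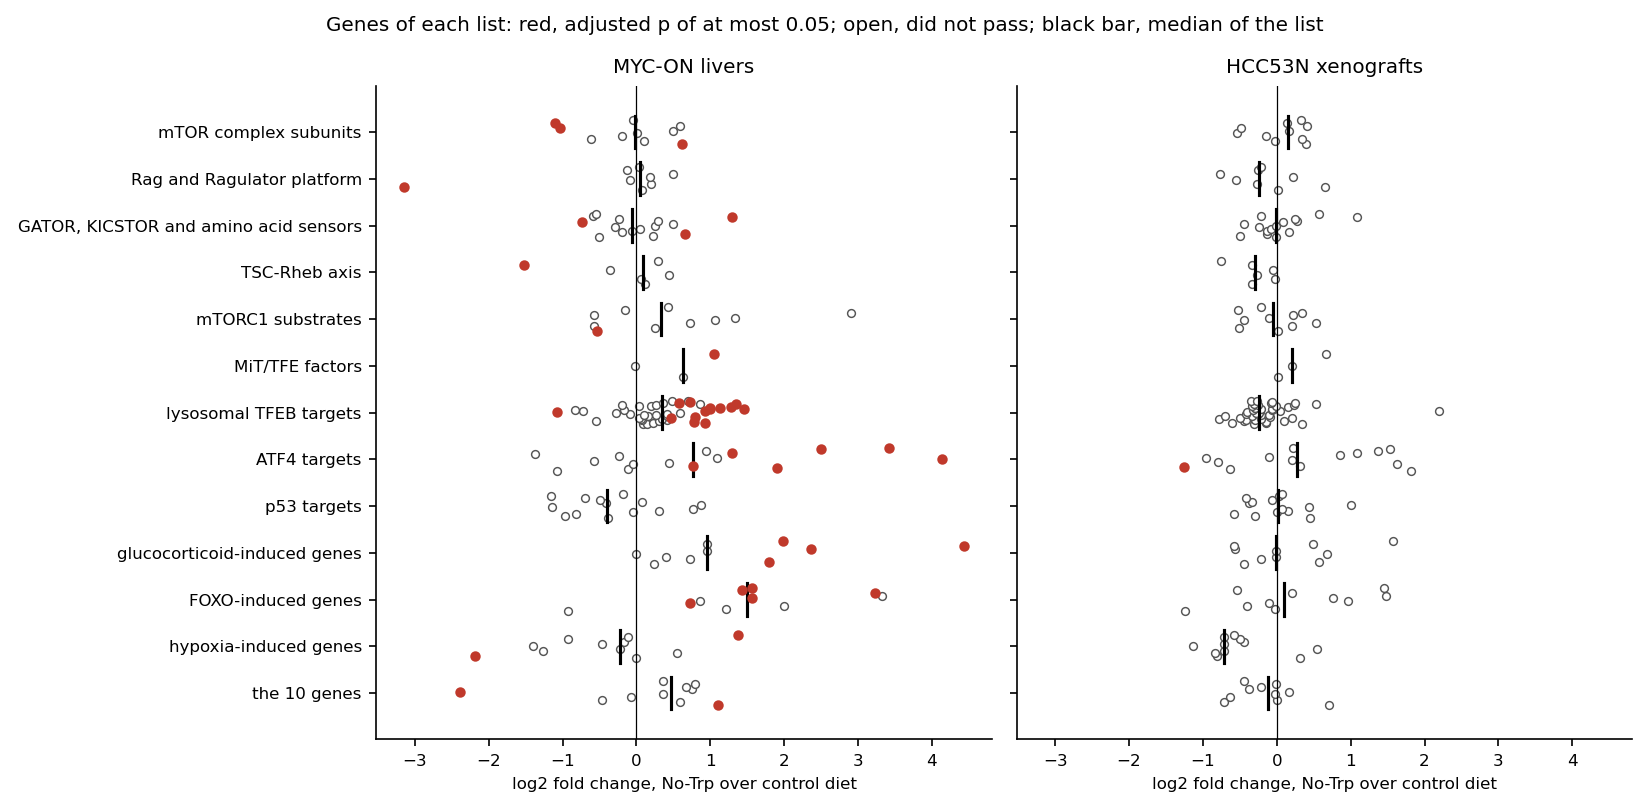
Points are log2 fold changes of the No-Trp over the control diet for each gene of a list, in livers (left) and xenografts (right) on the same scale. Red points passed, black bars are medians, and the lowest row holds the 10 genes. The lysosomal targets have a median of 0.35 in livers and −0.24 in xenografts, and the FOXO-induced genes a median of 1.49 in livers.

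Genes known to answer the inducers of Ddit4 and the sestrins were counted in the same way, against the 13.3% of all genes that rose in the livers. The hepatocyte markers were higher in the same livers (median 1.73), and their part in these counts was not tested. Of 15 ATF4 targets 6 rose and 0 fell in the livers (median 0.76), led by Fgf21, a liver hormone of amino acid shortage (log2 fold change 4.14, edgeR adjusted p = 0.00713), and Vldlr, a lipoprotein receptor (3.42, 0.0108). The sestrin gene Sesn2 is itself 1 of the 15 and 1 of the 6 that rose, so the list is not independent of the sestrins. The values of the other 9 were not past the test and 6 of the 15 were negative. Among these were 2 amino acid synthesis enzymes, named after their values were seen, Psat1 for serine (−1.37, edgeR adjusted p = 0.139) and Asns for asparagine (−1.08, 0.116). In the xenografts 1 of 14 fell, Cebpb, which encodes a transcription factor of hepatocytes and stress (−1.25, edgeR adjusted p = 0.0235), and the median was 0.27. Of 10 glucocorticoid-induced genes 4 rose in the livers (median 0.95), with Tat, a tyrosine-degrading enzyme that is also 1 of the hepatocyte markers, at 4.43 (edgeR adjusted p = 0.0298) and the kinase gene Sgk1 at 2.36 (0.0136). Of 10 FOXO-induced genes 5 rose in the livers (median 1.49), among them Pdk4, which slows pyruvate oxidation (3.23, edgeR adjusted p = 0.0291), and Klf15 (1.56, 0.0183). Of 14 p53 targets 0 passed with edgeR in either model, with medians of −0.40 in livers and 0.01 in xenografts. The smallest adjusted p for p53 targets in the livers was 0.0561, for Bax. Of 11 hypoxia-induced genes 1 rose and 1 fell in the livers, Vegfa for the vessel growth factor (1.37, edgeR adjusted p = 0.0253) and Ankrd37 (−2.19, 0.0172). In the xenografts 9 of these 11 had negative values (median −0.71) and 0 passed. On the control diet 7 of the 11 were higher in xenografts than in livers and 0 lower (median 1.94). Over all genes 30.8% were higher and 28.7% lower. The other lists held 5 higher and 3 lower of 15 ATF4 targets (median 0.50) and 5 and 6 of 14 p53 targets (−0.24). The glucocorticoid-induced genes held 1 higher and 4 lower of 10 (−0.51), and the FOXO-induced genes 2 and 6 of 10 (−1.95). Their part in the levels of Ddit4 and the sestrins was not tested.

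By likeness of pattern over the 12 libraries, with each model centered on its own mean, Deptor was closest to Sft2d2 and Clmn (Pearson r = 0.97 for both) and Rragd to Ydjc and Acot7 (r = 0.96 for both). The r of Deptor with Rragd was −0.82. Of all genes compared, the closest to Flcn was its partner Fnip1 (r = 0.95), a pair named after its value was seen. The points share the diet groups and the batch mark, so these values describe the libraries only.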

How the data were processed

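RNA-seq counts of 12 mice in 4 groups were used. After adapter and quality trimming (Trim Galore), the authors mapped reads to mm10 using STAR 2.7.2b and assigned them to genes using HTSeq, and the deposited values are whole read counts without normalization. The HTSeq version, strand setting and overlap rule are not given in the sources used here. Reads that the counting left off genes (24.7% to 39.4% per library) stayed out of library sizes. Groups came from the labels.

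The diet comparisons were fitted by model in R 4.3.3 using edgeR 4.0.16 (TMM, filterByExpr, robust glmQLFit, glmQLFTest, two-sided). Their difference and the model contrast came from a fit over all 12 libraries. Levels per length used union exon lengths of GENCODE M21, and levels carry no interval for counting error. With at least 22 reads this error is below the spread between mice (31.6% in livers, 28.7% in xenografts) for the 10 members, but not for Rragb in every library, which had as few as 5 reads in No-Trp livers. Of each list, at most the 2 largest rises and the 2 largest falls that passed were named, or else the genes of smallest p. Of marker lists the first gene and genes at 0 were named. Lists held 212 entries, 4 of which had no row used here. The members and lists were chosen with earlier results of these data known. Alternatives were DESeq2 1.42.0, other scalings and filters, resubmission as a covariate, 1 shared fit, the study's fold cut-off, leaving out each library, and the longest transcript as gene length. On simulated counts with 200 genes changed by 2 on the log2 scale, edgeR recovered 84.5% of them in the liver design (14122 genes) and 94% in the xenograft design (14704 genes). For the difference between the models it recovered 77%. In these designs 6.63%, 6.47% and 8.33% of the calls, in that order, fell on unchanged genes. Smaller changes were not simulated, so these shares do not cover members with smaller values.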

Additional observations from a re-analysis of the deposited data

Results flagged for a closer look

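Among 42 pathway genes named by rule, 14 had a diet effect that differed between the models by the test of the difference itself (edgeR, xenograft minus liver on the log2 scale, adjusted p at most 0.05). These genes were picked for their values in the diet comparisons that the test also uses, so the count of 14 carries no weight of its own. The Rag and Ragulator genes were Rragb at 3.81 (adjusted p = 0.0154) and Lamtor4 at −1.23 (0.0444). The assembly factor Telo2 was at 1.27 (0.0295) and the KICSTOR gene Itfg2 at 0.85 (0.0374). Of lysosomal targets, Lamp2 was at −1.64 (0.0209), Sqstm1 at −1.63 (0.0111) and Gpnmb at 2.94 (0.0266). Gpnmb and Lamtor4 passed in neither diet comparison, and Gpnmb was low in control xenografts, at 0.917 to 1.71 CPM. The ATF4 targets were Fgf21 at −3.13 (0.0237), Vldlr at −3.17 (0.00328) and Cebpb at −3.12 (0.00165). Outside the rule, and named after their values were seen, Asns was at 2.92 (0.0205), in the other direction, and Nupr1 at −2.02 (0.0326). Fgf21 was near the floor in the xenografts, with means of 0.113 CPM in control and 0.226 CPM in No-Trp tumors. It failed the filter on low counts there, so its value rests on the livers. Over whole lists, 1 higher and 4 lower of 15 ATF4 targets and 1 higher and 12 lower of 43 lysosomal targets passed, where 8.24% of all genes were higher and 7.39% lower. The glucocorticoid-induced genes were Tat at −4.97 (0.0237), Sgk1 at −2.89 (0.00593) and Fkbp5 at −1.20 (0.00718), and the hypoxia-induced gene Vegfa was at −1.91 (0.0154). The 10 members had 0 such calls with edgeR, and 4 had an unadjusted p of at most 0.05.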

How the results depend on the processing

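No paired analysis was possible because no mouse number is shared between groups. In the livers the members that passed were 1 higher and 1 lower; the counts were 2 higher with DESeq2 (Flcn added), 0 higher with library totals, 3 higher in a fit over all 12 libraries, and 0 to 4 higher and 0 to 1 lower with each library left out. All genes there (1876 higher, 1697 lower) went to 889 higher with library totals, 1027 lower with the study's cut-off, and 7 to 2340 higher and 1 to 1828 lower with a library left out, the fewest without control liver 103. Sesn3 changed sign in the livers without a library, between −0.22 and 0.18.

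In the xenografts all genes that passed (36 higher, 19 lower) were 341 and 297 with DESeq2, 58 and 31 with RLE factors, 65 and 11 with library totals, 59 and 36 without Rn45s, 80 and 68 without a filter, 10 and 5 with at least 10 counts in every library, 3 and 1 with resubmission as a covariate, 18 and 5 in the fit over all libraries, and 7 to 35 and 2 to 46 with a library left out. Members that passed there were 0 to 1 lower with a library left out. Values near 0 changed sign. Fnip2 was at 0.0031 with DESeq2, 0.01 with RLE factors, 0.10 with library totals, 0.0046 without Rn45s, 0.01 with both other filters and in the joint fit, 0.19 with resubmission, and −0.12 to 0.08 with a library left out. Rragc was at 0.07 with library totals, 0.02 with resubmission and −0.22 to 0.10 with a library left out. Sesn1 was at −0.19 with resubmission and −0.16 to 0.11, Rragd at −0.73 to 0.59 and Tfeb at −0.69 to 0.01 with a library left out.

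For the difference between models (1275 genes higher, 1144 lower) DESeq2 gave 1917 lower, library totals 2055 higher and 507 lower, and fits without a library 491 to 1387 and 475 to 1572. Members that passed were 1 higher and 3 lower with DESeq2, 1 higher with library totals and with at least 10 counts in every library, and 0 to 1 higher and 0 to 3 lower with a library left out. With library totals Deptor was at 0.05 and Rragc at 0.01 there. In the model contrast Rragc was at 0.07 with library totals, and Tfeb at −0.24 to 0.47 with a library left out. With the longest transcript as length, Sesn3 held 3.5%, 2.49%, 15.3% and 7.08% of the sestrins and Tfeb 54.6%, 50.5%, 38% and 30.8% of its family in control and No-Trp livers and xenografts. Library totals moved the median of all genes to −0.30 in livers, 0.11 in xenografts, 0.41 for the difference and 0.17 for the model contrast, so a direction under that scaling is read against this shift. The causes were not tested.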
